A study of Mus musculus with 16 samples.

Results

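The GADD45 family was examined in the brains of aged mice given adropin(34-76), the putative secreted domain of the peptide hormone adropin, or its saline diluent. The members were the 4 genes listed under the symbols Gadd45a, Gadd45b, Gadd45g and Gadd45gip1, of 40481 genes listed in all, and all 4 passed the filter on low counts that left 14949 genes. They were chosen by name with earlier results of these same libraries known, so their differences between adropin-treated and saline-treated mice are given as a description, without a test. The mice were male C57BL animals (C57BL/6J in the study's text) bought at 18 months of age, and the labels name no transgene or mutation in either group. The adropin group (n = 8) received 90 nmol/kg of peptide per day by intraperitoneal injection, and the saline group (n = 8) received the diluent by the same route. Injections had run for 2 weeks when behavioural testing began and were continued through it, for 4 weeks in all in the study's text. The animals were fasted for 6 h before brain tissue was frozen. By the study's text, the 8 mice per group were selected from the larger groups of its behavioural tests. The labels name the tissue only as brain, without the region sampled, and in such bulk tissue fewer cells of a type and less RNA per cell cannot be told apart.

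The GADD45 proteins (growth arrest and DNA damage inducible) are small nuclear and cytoplasmic proteins without known enzyme activity that act by binding others. They activate the kinase MEKK4 (Map3k4) and through it p38 and JNK, hold back the Cdk1-cyclin B1 pair, bind PCNA and p21 (Cdkn1a), and take part in DNA repair and in active removal of DNA methylation. In the brain Gadd45b is known as a gene switched on by neuronal activity that is linked to demethylation at the Bdnf and Fgf1 promoters, while Gadd45a is a classic p53 target. Gadd45gip1 (CRIF1) is unlike the other members in sequence: it was named for binding the GADD45 proteins, and it is also a component of the large subunit of the mitochondrial ribosome.

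The 4 genes lie on different chromosomes of GRCm38. Gadd45b (ENSMUSG00000015312) is at chr10:80930073-80932204 on the plus strand and Gadd45g (ENSMUSG00000021453) at chr13:51846678-51848468 on the plus strand, and neither overlaps another annotated gene. Gadd45a (ENSMUSG00000036390) is at chr6:67035096-67037457 on the minus strand, where E230016M11Rik overlaps it on the plus strand. Gadd45gip1 (ENSMUSG00000033751) is at chr8:84831522-84835482 on the plus strand, where another annotated gene overlaps it on the minus strand. Whether counting used strand is not stated, so the counts of Gadd45a and Gadd45gip1 are uncertain to that extent. The log2 fold change between groups was -0.11 (standard error 0.20) for E230016M11Rik.

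The bases just before the transcription start are shown for the 3 GADD45 genes because Gadd45b and Gadd45g carry short motifs in a shared order there. RefSeq (GRCm38.p6) gave an entry for 3 of the 4 members, all but Gadd45gip1. Each sequence reads 5′ to 3′ on the gene's own strand and stops before the most upstream annotated start, and capitals mark the letters CACGTG (the E-box), CCAAT (the box of that name) and TATAAA (the TATA box). The windows are chr10:80929841-80930072 (plus strand) for Gadd45b, chr13:51846425-51846674 (plus strand) for Gadd45g and chr6:67037458-67037657 (minus strand) for Gadd45a.
Gadd45b: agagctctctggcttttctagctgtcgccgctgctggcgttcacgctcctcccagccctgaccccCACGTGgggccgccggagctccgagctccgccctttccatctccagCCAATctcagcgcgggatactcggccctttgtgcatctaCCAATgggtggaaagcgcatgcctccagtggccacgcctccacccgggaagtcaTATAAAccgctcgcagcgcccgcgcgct
Gadd45g: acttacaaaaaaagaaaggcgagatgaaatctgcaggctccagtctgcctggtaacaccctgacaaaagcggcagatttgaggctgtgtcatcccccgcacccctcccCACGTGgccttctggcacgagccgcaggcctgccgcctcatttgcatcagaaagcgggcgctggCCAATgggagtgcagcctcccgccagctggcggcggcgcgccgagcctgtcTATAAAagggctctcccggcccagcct
Gadd45a: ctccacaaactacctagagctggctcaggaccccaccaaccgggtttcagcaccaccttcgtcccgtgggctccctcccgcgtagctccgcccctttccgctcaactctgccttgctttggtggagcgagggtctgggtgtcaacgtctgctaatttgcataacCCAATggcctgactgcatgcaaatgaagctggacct

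In the Gadd45b sequence the E-box started at position -185 counted from the RefSeq start, CCAAT boxes at -139 and -100, and the TATA box at -46. The Gadd45g sequence held the same order, with the E-box at -142, the CCAAT box at -78 and the TATA box at -27. Gadd45a held a CCAAT box at -86 and neither an E-box nor a TATA box of these letters. Read on both strands in the 250 bases before the start, CACGTG was present in 6.02% of 32851 RefSeq promoters, CCAAT in 33.8% and TATAAA in 12.4%, and 55 promoters (0.167%) held all of them. The cyclic AMP response element TGACGTCA (1.55% of promoters), its half-site TGACG (17.8%, which lies within the full element) and the AP-1 site TGANTCA (6.75%) were not among the letters of the 250 bases before the 3 starts. The motifs were picked after the sequences had been seen, and a match describes letters only.

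The libraries held from 35185051 to 70314050 counts in the adropin group and from 35026503 to 47245785 in the saline group. Over all 14949 genes, no gene passed an adjusted p of 0.05 with edgeR's quasi-likelihood test (0%; the smallest adjusted p was 0.387) or with limma-voom, and 5 genes did with DESeq2, against 596 genes at an unadjusted p below 0.05 by edgeR, 596 by limma-voom and 713 by DESeq2. Of the edgeR genes, 318 were lower in adropin-treated mice (2.13% of those tested) and 278 higher (1.86%). With a fold change above 1.5 as well, 46 were lower (0.308%) and 17 higher (0.114%). Among the edgeR alternatives, 3 genes passed an adjusted p of 0.05 without adropin-treated mouse 5_5, and 2 when blocked by the second label number. The median log2 fold change of all genes was -0.0019, with 7587 genes below zero. The neuron, astrocyte and other glial markers of brain were detected in every mouse, with summed neuron markers from 6617 to 8085 CPM (counts scaled to library size, here after normalization by trimmed mean of M-values, TMM). Saline-treated mouse 8_3 stood apart in its choroid plexus markers (6 genes, summed 2465 CPM, where the other 15 mice had at most 328.9) and its cerebellar markers (4 genes, summed 281.3 CPM, where the others had at most 37.77). Values below are therefore also given without this mouse where they moved most.

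Gadd45b, the member known as an activity-induced gene, showed the clearest difference in level. In saline-treated mice it was measured at 18.1 CPM in the lowest mouse, a median of 21.3 and 25.8 in the highest. In adropin-treated mice the lowest was 10.96, the median 15.2 and the highest 20.2 CPM. Of the 8 adropin-treated mice, 7 lay below every saline-treated mouse, and only mouse 5_5, at 20.2 CPM, reached into the saline range. Among all genes tested, 11 (0.0736%) had at least 7 adropin-treated mice below every saline-treated mouse, a share that is given for scale only, since this contrast was known when the gene was chosen. The means were 15.0 ± 2.88 CPM in adropin and 21.8 ± 2.41 CPM in saline (SD, n = 8 each). The log2 fold change was -0.53 (standard error 0.11), or 1.45-fold lower.

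**Figure D1:**
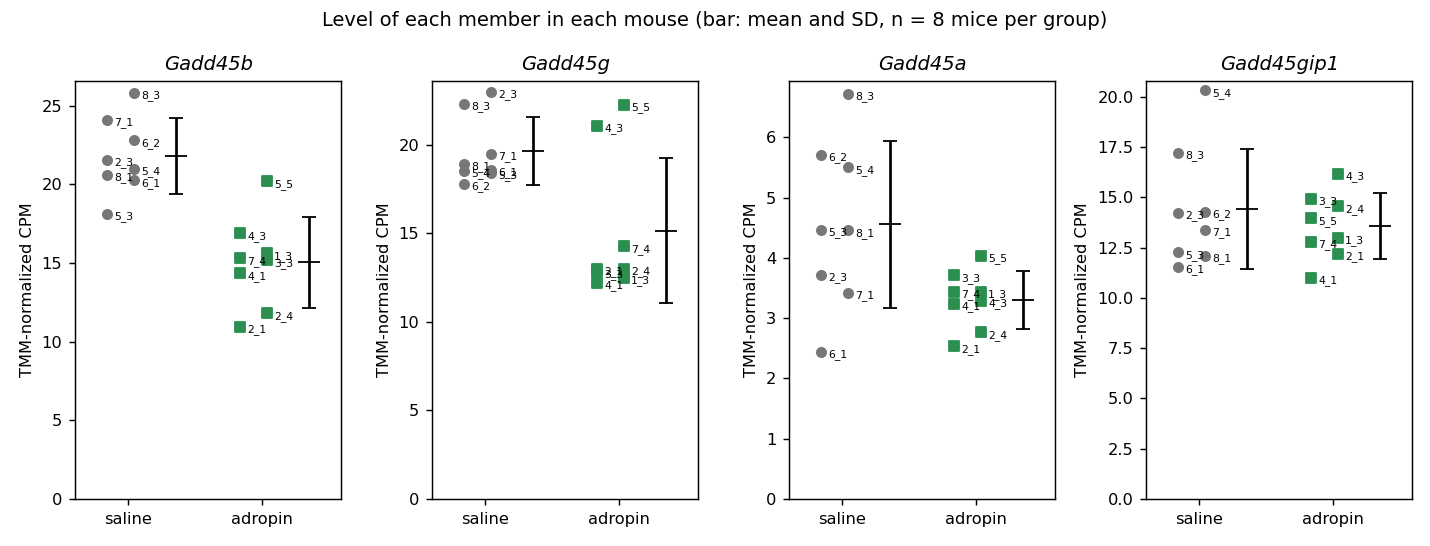
Level of each GADD45 family member in every mouse, as TMM-normalized CPM on axes that start at 0, with mouse labels beside the points and the mean and SD of 8 mice per group as a bar. For Gadd45b, 7 of 8 adropin-treated mice lie below the lowest saline-treated mouse (18.1 CPM), and for Gadd45gip1 the groups largely overlap.

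Gadd45g, a paralogue that arrests growth and is also induced in neurons, was split within the adropin group. Its lowest, median and highest values were 17.8, 18.8 and 23.0 CPM in saline-treated mice and 12.2, 13.0 and 22.3 CPM in adropin-treated mice. In 6 adropin-treated mice it was between 12.2 and 14.3 CPM, below every saline-treated mouse, whereas mice 4_3 (21.1 CPM) and 5_5 (22.3 CPM) were within the saline range and above its median. The share of all genes with such a split was not counted, so nothing is read from it. The mean was 15.1 ± 4.09 CPM in adropin and 19.6 ± 1.93 CPM in saline (SD, n = 8 each), and the log2 fold change was -0.38 (standard error 0.13). Without mouse 5_5 it was -0.47, and without mouse 4_3 it was -0.45.

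Gadd45a, the p53-regulated member, was the least abundant and overlapped between groups. Saline-treated mice ranged from 2.44 to 6.72 CPM around a median of 4.46, and adropin-treated mice from 2.53 to 4.04 CPM around a median of 3.36. None of the adropin-treated mice lay below every saline-treated mouse, because saline-treated mouse 6_1 was the lowest of all, but all 8 were below the saline median. How many of all genes have all 8 below that median was not counted either. The mean was 3.31 ± 0.48 CPM in adropin and 4.55 ± 1.38 CPM in saline (SD, n = 8 each), with a log2 fold change of -0.46 (standard error 0.17). Mouse 8_3 had the highest saline value, and without it the log2 fold change was -0.36. Counts of Gadd45a were between 110 and 310 per mouse, so counting error alone gives a coefficient of variation (CV) of 9.54% at the lowest count.

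Gadd45gip1, the mitochondrial ribosome component, differed least. It was measured at 11.5 to 20.3 CPM (median 13.8) in saline-treated mice and at 10.99 to 16.2 CPM (median 13.5) in adropin-treated mice. Only 1 adropin-treated mouse was below every saline-treated mouse, and 4 of 8 were below the saline median. The mean was 13.6 ± 1.66 CPM in adropin and 14.4 ± 2.98 CPM in saline (SD, n = 8 each), and the log2 fold change of -0.09 (standard error 0.11) was smaller than its error. Without saline-treated mouse 5_4, the highest of all, it was -0.00046.

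Set against the mean of the other members in the same mouse, Gadd45b stood 1.02 ± 0.21 log2 units higher in saline and 0.77 ± 0.15 in adropin (SD, n = 8 each), a difference of -0.25 between groups. Most of this came from Gadd45gip1. The difference in the Gadd45b to Gadd45gip1 log2 ratio was -0.48, from 0.61 ± 0.25 in saline to 0.13 ± 0.28 in adropin. Against Gadd45a the log2 ratio went from 2.30 ± 0.43 in saline to 2.16 ± 0.11 in adropin, and against Gadd45g from 0.15 ± 0.15 to 0.01 ± 0.25, each a difference of -0.14. The difference against Gadd45g was smaller than the SD of either group, and that against Gadd45a was smaller than the SD in saline but larger than that in adropin. Whether the shift of Gadd45b differs from those of Gadd45a and Gadd45g was not tested.

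The order of the members was the same in all mice once levels were divided by the exon length of each gene. Per kilobase, Gadd45g was above Gadd45b, Gadd45b above Gadd45gip1 and Gadd45gip1 above Gadd45a in 8 of 8 mice of each group. In saline-treated mice the means were 16.7 ± 1.65 CPM per kilobase for Gadd45g, 13.7 ± 1.52 for Gadd45b, 5.78 ± 1.19 for Gadd45gip1 and 2.58 ± 0.78 for Gadd45a (SD, n = 8). In adropin-treated mice they were 12.9 ± 3.49, 9.46 ± 1.81, 5.44 ± 0.66 and 1.87 ± 0.27 CPM per kilobase in the same order. The ranges of the neighbours Gadd45g and Gadd45b overlapped across mice in both groups (15.2 to 19.6 against 11.4 to 16.3 CPM per kilobase in saline), while those of the other neighbours did not.

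Spread within a group also moved differently between the members. The CV of Gadd45a was 30.4% in saline and 14.6% in adropin, and that of Gadd45gip1 was 20.7% and 12.2%. For Gadd45b it was 11.1% in saline and 19.1% in adropin, and for Gadd45g 9.84% and 27.0%. These differences in spread were not tested.

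**Figure D2:**
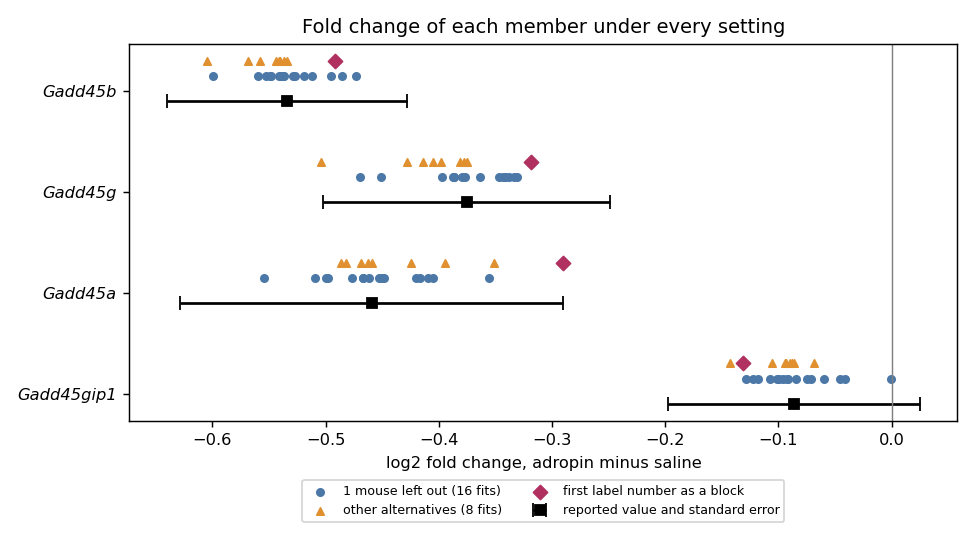
Log2 fold change of each member, adropin minus saline: black squares with standard errors are the reported values, blue points the 16 fits with 1 mouse left out, orange triangles 8 other alternatives and red diamonds the fit blocked by the first number of the mouse label. Every point for Gadd45b lies between -0.60 and -0.47, and every point for the 4 members is below zero, with Gadd45gip1 touching it.

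Each mouse label is a pair of numbers whose meaning the labels do not give, and the first of them was unevenly spread over the groups. Of 8 first numbers, 3 occurred only in adropin-treated mice, 2 only in saline-treated mice and 3 in both, covering 8 mice. Within first number 2, Gadd45b was at 11.4 CPM in adropin (2 mice) and 21.6 in saline (1 mouse), a log2 difference of -0.92. Within 7 it was at 15.3 and 24.1 CPM (1 mouse each), a difference of -0.66. Within 5 no lower level was seen, at 20.2 CPM in adropin (1 mouse) and 19.6 in saline (2 mice), a log2 difference of 0.05. Gadd45g followed the same pattern, with differences of -0.82, -0.45 and 0.27 within first numbers 2, 7 and 5. Gadd45a gave -0.49, 0.01 and -0.30, and Gadd45gip1 gave -0.09, -0.07 and -0.18. Blocked by the first number, the log2 fold changes were -0.49 for Gadd45b, -0.32 for Gadd45g, -0.29 for Gadd45a and -0.13 for Gadd45gip1. For the first numbers found in a single group, the number and the treatment cannot be told apart.

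**Figure D3:**
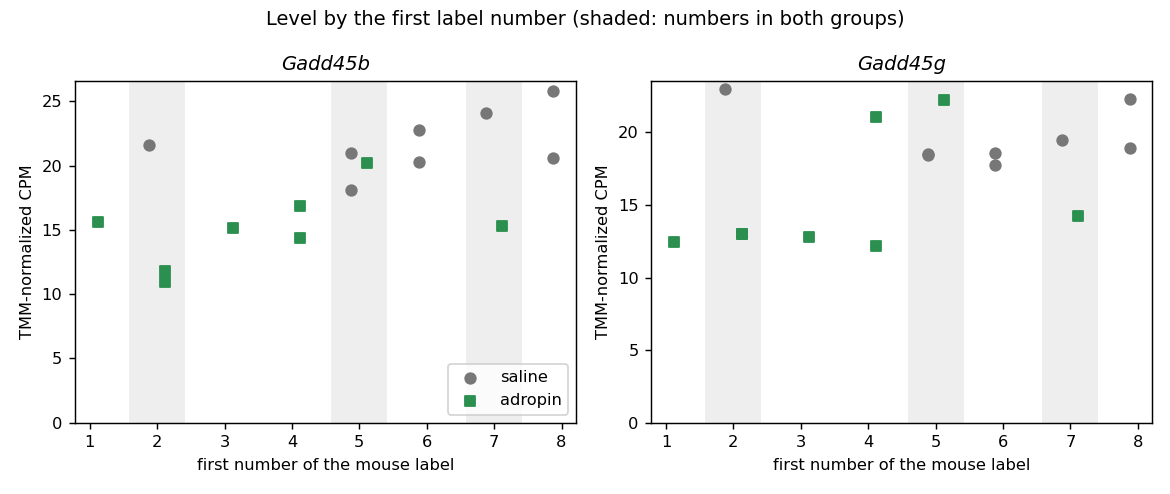
TMM-normalized CPM of Gadd45b and Gadd45g against the first number of the mouse label, with saline-treated mice as grey circles, adropin-treated mice as green squares, and the numbers present in both groups shaded. Adropin-treated mice lie lower within numbers 2 and 7, and mouse 5_5 lies with or above the saline-treated mice of number 5.

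How the members varied together was examined over the 16 mice with group means subtracted, which the choice of members had not used. Gadd45b and Gadd45g gave the highest correlation (Pearson r = 0.66, permutation p = 0.0229, adjusted over the 6 pairs to 0.0688; Spearman rho = 0.52, permutation p = 0.0513, adjusted 0.103). Without mice 2_1 and 5_5, the farthest from the median, r was lower, at 0.49 (permutation p = 0.121). With these mice in, the relation had not passed an adjusted p of 0.05 either. The lower value went with mouse 5_5, since r was 0.47 without it alone and 0.68 without mouse 2_1 alone. Gadd45a and Gadd45b gave r = 0.50 (permutation p = 0.0155, adjusted 0.0688; rho = 0.53, permutation p = 0.0351, adjusted 0.103) and 0.50 without mice 6_1 and 8_3 (permutation p = 0.0544). Within the adropin group alone r was 0.93 (exact permutation p = 0.0028, adjusted over the 12 pairs within groups to 0.0336), and within the saline group 0.37 (exact permutation p = 0.374, adjusted 0.561). The difference between the groups was not tested. Gadd45a and Gadd45gip1 gave r = 0.57 (permutation p = 0.0489, adjusted 0.0979; rho = 0.61, permutation p = 0.0224, adjusted 0.103), which was 0.38 without mice 6_1 and 8_3 (permutation p = 0.238). The 3 remaining pairs had r between 0.21 and 0.35 (rho between 0.07 and 0.45), with adjusted p from 0.189 to 0.296. Leaving out 1 mouse moved r to 0.08 for Gadd45a with Gadd45g (without 5_5), and to 0.21 (without 4_3) or 0.52 (without 5_4) for Gadd45g with Gadd45gip1. The other 10 values within a group lay between 0.10 and 0.71, the highest being Gadd45b with Gadd45g in adropin (r = 0.71, exact permutation p = 0.0526, adjusted 0.264) and Gadd45a with Gadd45gip1 in saline (r = 0.68, exact permutation p = 0.0661, adjusted 0.264). None of the 6 pairs passed an adjusted p of 0.05 over the 16 mice, so covariation of the members across both groups was not established at this number of mice.

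**Figure D4:**
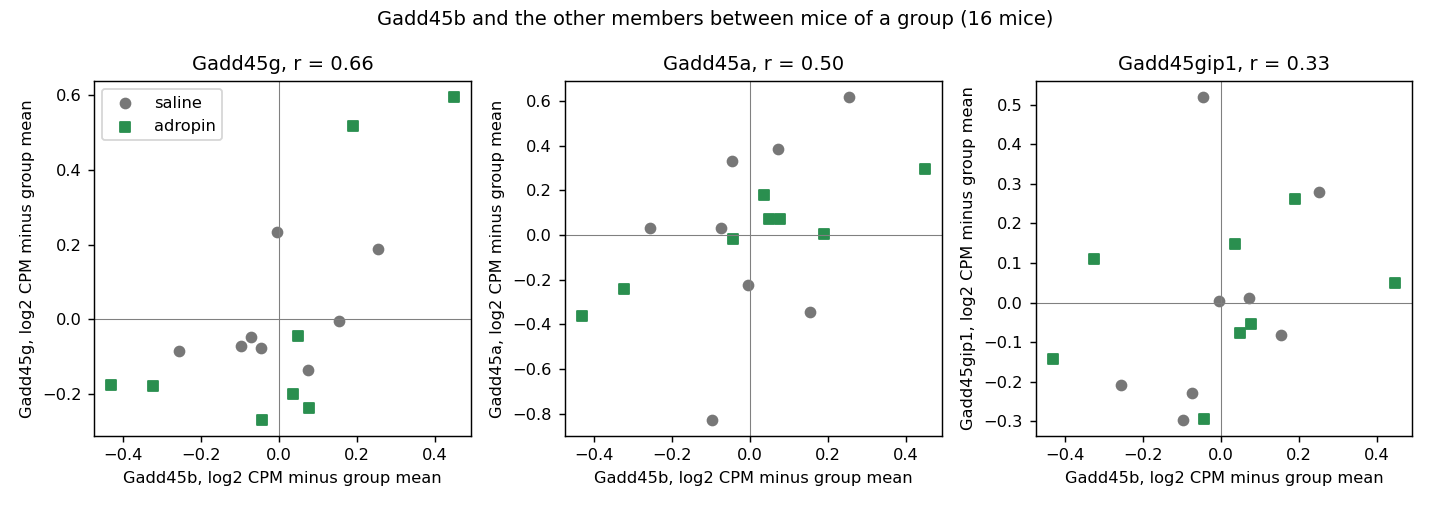
Deviation of Gadd45g, Gadd45a and Gadd45gip1 from the group mean against that of Gadd45b, both in log2 CPM, for 16 mice. The correlations are 0.66, 0.50 and 0.33, and the adropin-treated mice 4_3 and 5_5 form the upper right of the Gadd45g plot.

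Each member was also set against 6 other measures over the same mice: total counts, the marker scores of neurons, astrocytes and choroid plexus, and the scores of the immediate early genes and the p53 list. Of these 24 relations, 0 passed an adjusted permutation p of 0.05, by Pearson's r or Spearman's rho. The strongest joined Gadd45gip1 with the choroid plexus score (r = 0.70, permutation p = 0.0130, adjusted 0.28; rho = 0.72, permutation p = 0.00292, adjusted 0.0701), and r was 0.77 without mice 8_3 and 4_3 (permutation p = 0.0152). For Gadd45b and the immediate early gene score, r was 0.39 (permutation p = 0.158, adjusted 0.451; rho = 0.45, permutation p = 0.0977, adjusted 0.703) and 0.54 without mice 5_4 and 3_3 (permutation p = 0.0860). With the same score r was 0.14 for Gadd45a, 0.31 for Gadd45g and -0.40 for Gadd45gip1. Without the same mice these were 0.54 (unadjusted permutation p = 0.0228), 0.26 and 0.10. Gadd45a, the p53 target, had r = 0.13 with the p53 list score (permutation p = 0.631, adjusted 0.797; rho = 0.22, permutation p = 0.405, adjusted 0.742) and 0.14 without mice 4_3 and 1_3 (permutation p = 0.670). With total counts, r lay between -0.18 and 0.18 for the 4 members.

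Among all 14948 other genes, those most like a member between mice of a group were named by Pearson's r over 16 mice, as a description. For Gadd45b they were Gm26617 (r = 0.78), Purg (0.77), Gm11944 (0.76), Spsb2 (0.76), Urm1 (0.74), Gm26982 (0.74), Rps6-ps1 (0.73), Smarce1 (0.73), Akt1s1 (0.73) and Sertad1 (0.73). Gadd45g was 31st and Gadd45a 500th in that order. For Gadd45g they were 9130023H24Rik (r = 0.78), Celrr (0.74), Akt1s1 (0.73), Gm11642 (0.73) and Ovca2 (0.73), with Gadd45b in 16th place. Gadd45a had much closer companions, Gm28040 (r = 0.92), Myl4 (0.90), Klc4 (0.84), Galt (0.84) and Hira (0.84). So had Gadd45gip1, with the proteasome subunit gene Psmb5 (r = 0.92), 2610001J05Rik (0.92), 1500026H17Rik (0.91), the mitochondrial ribosome gene Mrpl51 (0.91) and Pop4 (0.91). The number of genes above r = 0.7 was 15 for Gadd45b, 6 for Gadd45g, 212 for Gadd45a and 1378 for Gadd45gip1 (9.22% of genes). All these points share the same libraries, and with so many genes compared high values arise easily.

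The partners and effectors of the family were counted from lists of genes that passed an unadjusted p of 0.05 by edgeR. No listed gene passed an adjusted p of 0.05 by edgeR, limma-voom or DESeq2. Apart from the immediate early genes, 5 of 125 listed genes tested were lower in adropin-treated mice and 1 was higher, beside 2.13% lower and 1.86% higher over all genes. In either direction 596 of all genes passed in this fit, and from 383 to 1445 when 1 mouse was left out. The highest such counts were 1445 without mouse 4_3, 980 without 5_3, 920 without 7_1, 792 without 3_3 and 754 without 6_1. List counts without those mice are to be set beside these. Of 13 MAP kinase genes listed for the p38 and JNK pathways, Map2k3, which activates p38, was lower (10.6 ± 0.89 against 12.7 ± 1.82 CPM, log2 fold change -0.26, standard error 0.09). The neuronal JNK gene Mapk10 was higher (466 ± 42.2 against 422 ± 26.3 CPM, 0.14, standard error 0.06). Both calls were lost when blocked by either label number, and that of Mapk10 also with limma-trend, with library size alone and in 6 of the 16 fits that left out 1 mouse (1_3, 2_4, 5_4, 6_1, 7_4 or 8_3). Without mouse 4_3, 3 genes of the list were higher, in the fit where 1445 of all genes passed in either direction. Map3k4, the kinase the GADD45 proteins bind directly, had a log2 fold change of -0.03 (standard error 0.06). Of 6 cell cycle and repair partners tested, Cdkn1a, which encodes the cell cycle inhibitor p21, was lower (14.5 ± 1.26 against 17.6 ± 3.06 CPM, -0.27, standard error 0.10), a call lost when blocked by the first label number, and Pcna had -0.05 (standard error 0.06). The list had 2 lower genes with limma-voom or limma-trend and without mouse 4_3, 5_3, 6_1 or 7_1, and 1 higher gene with no filter. Cdk1 and Ccnb1, the mitotic pair, did not pass the filter on low counts.

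Of 12 genes of DNA methylation and demethylation, 0 passed in either direction, and 0 did with limma-voom, DESeq2 or any other alternative run. The list's median log2 fold change was 0.04, and 0.19 when blocked by the first label number. The TET enzymes, which oxidize methylated cytosine, had log2 fold changes of 0.10 (Tet1), 0.01 (Tet2) and 0.04 (Tet3), with standard errors from 0.12 to 0.14. Of the growth factor genes linked to Gadd45b, Bdnf, which supports neuronal survival and plasticity, was lower (27.3 ± 2.94 against 30.3 ± 2.41 CPM, -0.15, standard error 0.07), and Fgf1 had -0.03 (standard error 0.08). The call for Bdnf was lost in 13 of the 16 fits that left out 1 mouse (it was kept without mouse 2_1, 3_3 or 8_1), with no filter and when blocked by either label number.

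Of 17 genes of the p53 list, which includes the Gadd45a regulator Trp53, 2 were lower and 0 higher: Cdkn1a and Plk3, a stress-responsive kinase (16.9 ± 1.83 against 20.6 ± 3.87 CPM, -0.28, standard error 0.10). The call for Plk3 was lost when blocked by either label number. Trp53 itself had a log2 fold change of -0.11 (standard error 0.07), and the list's median was -0.06, which became -0.12 without mouse 1_3, -0.11 without 7_4, -0.11 without 6_1, -0.10 without 5_4, -0.10 without 5_3 and -0.04 without 4_3. It was -0.01 when blocked by the first label number and -0.03 when blocked by the second. The list had 3 lower genes with DESeq2, limma-trend or library size alone and without mouse 2_3, 3_3, 4_3, 5_4, 6_1 or 7_4, 1 lower gene with either block, and 1 higher gene without 4_3, 5_3 or 7_1. Of 12 other growth arrest and ATF4 pathway genes, only Ddit4, an inhibitor of mTORC1, passed and was lower (32.7 ± 4.48 against 38.6 ± 4.49 CPM, -0.24, standard error 0.09). Ddit3 (GADD153) had -0.05 (standard error 0.08) and Ppp1r15a (GADD34) -0.13 (standard error 0.09). Of 13 NF-kappaB genes, a pathway known to induce Gadd45b, 0 passed in either direction, and 0 did with limma-voom or DESeq2. There was 1 lower gene when blocked by the first label number and without saline-treated mouse 2_3 or 6_1, 1 lower and 1 higher without adropin-treated mouse 4_3, and 1 higher without saline-treated mouse 7_1.

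For Gadd45gip1, 1 of 5 listed partners passed, the nuclear receptor gene Nr4a1 (113.5 ± 32.2 against 178.5 ± 57.1 CPM, -0.65, standard error 0.20), which is also on the immediate early list. The call for Nr4a1 was lost when blocked by the first label number, where 1 other partner was lower. Of 47 large subunit genes of the mitochondrial ribosome, 0 passed in either direction by edgeR, limma-voom or DESeq2, with a median log2 fold change of -0.07 and 42 genes below zero. Gadd45gip1, at -0.09, lay near that median. Without saline-treated mouse 5_4 the median was -0.02 and without mouse 8_3 it was -0.04, while blocked by the first label number it was -0.14. Without adropin-treated mouse 4_3, 3 of the 47 genes were lower, and without saline-treated mouse 7_1, 1 was. Over all 14949 genes, 1445 and 920 passed in these fits in either direction, against 596 in the reported fit.

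The immediate early genes, which neurons switch on with activity as they do Gadd45b, had the median farthest from zero of the 10 pathway lists. Of 12, 9 were lower in adropin-treated mice and 0 higher at an unadjusted p below 0.05, and 7 of them by more than 1.5-fold beside 0.308% of all genes. The list's median log2 fold change was -0.62, against -0.53 for Gadd45b, -0.46 for Gadd45a, -0.38 for Gadd45g and -0.09 for Gadd45gip1. The 9 genes were Egr2 (-1.19), Fos (-0.997), Arc (-0.74), Btg2 (-0.67), Nr4a1 (-0.65), Junb (-0.64), Dusp1 (-0.60), Ier2 (-0.57) and Fosb (-0.53). Egr1 (-0.40), Npas4 (-0.51) and Egr3 (0.09) did not pass. In the fit blocked by the first label number, 0 of the 12 passed by edgeR, where 327 of all genes had an unadjusted p below 0.05, and the list's median was -0.45. That the list moved in earlier results of these libraries was known when it was chosen, so it lends no independent weight to the values of Gadd45b.

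**Figure D5:**
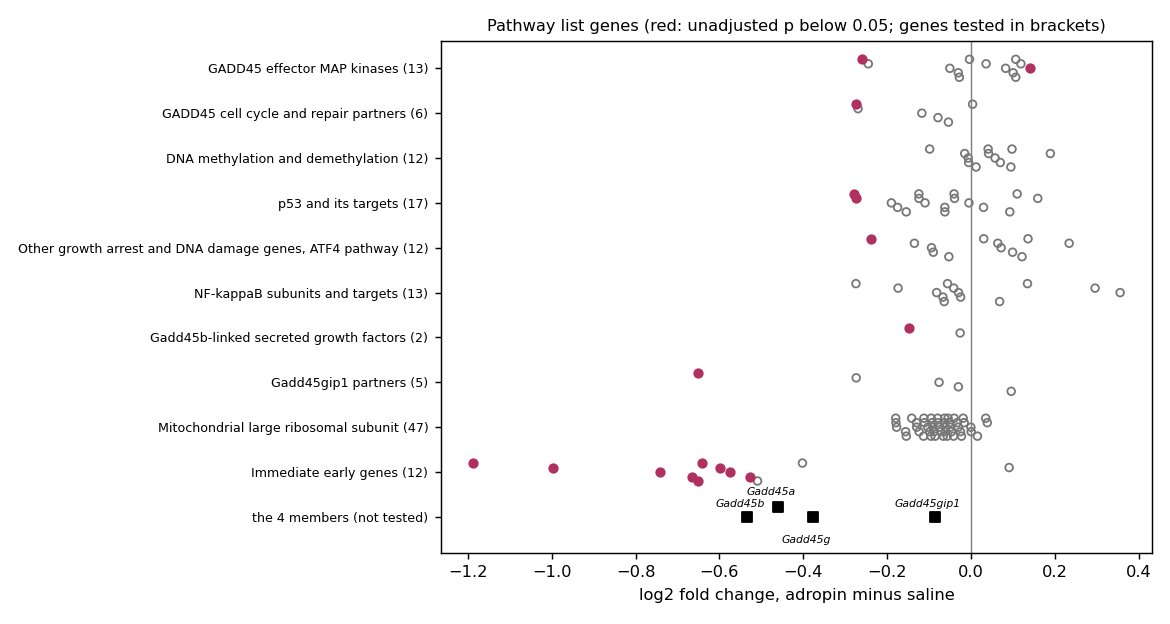
Log2 fold change, adropin minus saline, of each gene tested in the 10 pathway lists, with filled red points for an unadjusted p below 0.05 by edgeR and open points for the rest; the 4 members are black squares and were not tested. The immediate early genes lie farthest below zero (median -0.62), near Gadd45b, Gadd45a and Gadd45g, while the DNA methylation genes lie on both sides of zero and 42 of 47 mitochondrial ribosome genes lie slightly below it (median -0.07, and -0.02 without saline-treated mouse 5_4).

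Markers of other cell types differed between the groups in part of the lists. All 5 choroid plexus markers tested were lower in adropin-treated mice at an unadjusted p below 0.05 by edgeR. Over all genes 2.13% were lower and 1.86% higher. The summed levels of 6 choroid plexus markers ran from 11.3 to 73.6 CPM in adropin and from 12.6 to 2465 in saline, with close medians of 18.7 and 21.0 CPM. Without mouse 8_3, 2 of the 5 passed, both lower, and the list's median log2 fold change went from -1.31 to -0.67. Blocked by the first label number 0 of the 5 passed, and with limma-voom or limma-trend 2 did. Of the cerebellar markers, 1 of 2 tested was lower with that mouse and 0 without it, or without adropin-treated mouse 2_1, 3_3, 4_3 or 5_5, or by limma-voom, limma-trend, DESeq2 or either block, and the summed level of 4 ran from 15.9 to 37.8 CPM in adropin and from 19.8 to 281.3 in saline, with Pcp2 and Gabra6 at 0 in some mice. The oligodendrocyte markers had a median log2 fold change of -0.20 with 0 of 5 passing, but without adropin-treated mouse 7_4, the highest of its group, 2 of 5 were lower and the median was -0.34. The median was -0.13 without mouse 8_3, -0.14 without mouse 2_3, -0.32 when blocked by the second label number and 0.07 when blocked by the first. For the astrocyte markers it was 0.05 with 0 of 5 passing (from -0.0014 without mouse 8_1 to 0.08 without 4_3). For the neuron markers it was 0.06 with 0 of 6 passing (from 0.01 without mouse 1_3 to 0.09 without 5_3), and 1 was higher without mouse 4_3, 5_3 or 7_1. Of the microglial markers, 1 of 5 was higher, Cx3cr1 (50.2 ± 5.20 against 44.2 ± 4.37 CPM, 0.18, standard error 0.07). The count was 0 when blocked by the second label number and without saline-treated mouse 6_2 or adropin-treated mouse 7_4, and 2 without adropin-treated mouse 4_3 or saline-treated mouse 5_3. Without mouse 8_3, in which choroid plexus and cerebellar markers were highest, the log2 fold change was -0.49 for Gadd45b, -0.35 for Gadd45g, -0.36 for Gadd45a and -0.05 for Gadd45gip1. The part of the other marker differences in the member values was not tested.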

How the data were processed

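RNA from the brains of 16 mice, 8 per group, was poly-A selected and sequenced as paired ends. Reads had been mapped by the authors to the Ensembl mouse assembly (GRCm38) with STAR. The authors then counted uniquely aligned, unambiguous reads per gene with featureCounts, and deposited raw counts and the same values as CPM, scaled to each library's total. The strand setting is not given in the sources used here. Of 40757 rows, 276 repeats of a gene were dropped. Groups came from the treatment label and each mouse was 1 replicate. The members and lists were chosen with earlier results of these data known.

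Following the study's exclusion of low and ribosomal genes, a gene entered the fit where at least 7 mice had more than 1 CPM; 355 annotated ribosomal RNA genes were left out, leaving 14949. Counts were scaled by TMM (factors from 0.952 to 1.03) and fitted with edgeR 4.0.16 (quasi-likelihood test, two-sided, no covariate, Benjamini-Hochberg adjustment) in R 4.3.3. Levels are TMM-normalized CPM. Levels per kilobase used the merged exon lengths of GENCODE M21 (1764, 1589, 1173 and 2494 bases for Gadd45a, Gadd45b, Gadd45g and Gadd45gip1). Correlations used log2 CPM with a prior count of 2 and group means subtracted, with 100000 permutations within groups (two-sided), and exact permutations within a single group. List scores were means of standardized log2 CPM. Named genes were the 4 members, every pathway list gene at an unadjusted p below 0.05, and the genes with the highest r to a member (10 for Gadd45b, 5 for the others); further list genes were named after their values were seen.

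Alternatives were limma 3.58.1 (voom, and trend on log2 of the deposited CPM plus 1 or 0.1), DESeq2 1.42.0, no filter, library size alone, DESeq2 size factors, either label number as a block, and leaving out each mouse. The fitting and correlation steps were tested on simulated data. Counting error alone gave CVs from 3.71% to 9.54% at the lowest member counts. Transcript-level estimates were not used here. A gene withheld from this text is not reported here.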

Additional observations from a re-analysis of the deposited data

Results flagged for a closer look

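No group of a member's values held a mouse far from the other mice by Dixon's criterion. Of 24 groups of 8 mice examined (the 4 members and the 8 marker sums in each treatment), 4 had such a mouse, all in marker sums, where chance flags about 1 in 20 groups. Saline-treated mouse 8_3 had the highest choroid plexus marker sum, 2465 CPM, where the next saline-treated mouse had 328.9. The same mouse had the highest cerebellar marker sum, 281.3 CPM, with 34.97 next. Adropin-treated mouse 7_4 had the highest oligodendrocyte marker sum of its group, 7612 CPM, with 4799 next. Adropin-treated mouse 4_3, in which Gadd45g was within the saline range, had the lowest oligodendrocyte precursor marker sum of its group, 46.93 CPM, with 58.54 next.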

How the results depend on the processing

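The log2 fold changes of the 4 members kept their sign under all 25 alternatives, from -0.60 to -0.47 for Gadd45b, -0.50 to -0.32 for Gadd45g, -0.55 to -0.29 for Gadd45a and -0.14 to -0.00046 for Gadd45gip1. The difference of Gadd45b from the other members ranged, under the alternatives that apply to it, from -0.30 to -0.21. The 5 pathway genes lower outside the immediate early list became 2 when blocked by the second label number and 4 to 10 when 1 mouse was left out (10 without adropin-treated mouse 4_3). Over all 14949 genes, 596 had an unadjusted p below 0.05 in the reported fit, 420 with the second block and 1445 without mouse 4_3. The 1 higher gene, Mapk10, was joined by others or lost: the count became 0 with either limma-trend fit, with library size alone and when blocked by either label number, 2 with no filter, and 0 to 5 when 1 mouse was left out: 5 without adropin-treated mouse 4_3, 3 without saline-treated 7_1, 2 without saline-treated 5_3, and 0 without adropin-treated 1_3, 2_4 or 7_4 or saline-treated 5_4, 6_1 or 8_3. Over all genes, 920 passed an unadjusted p of 0.05 without mouse 7_1 and 980 without 5_3. In the fits that left out 1 mouse and had 0 higher list genes, from 383 to 754 of all genes passed. With no filter 1 gene was lower and 1 higher by more than 1.5-fold, where the filtered fit had 0 of each. The 9 lower immediate early genes became 0 when blocked by the first label number and 8 to 11 with 1 mouse left out. The r of Gadd45a with Gadd45b ranged from 0.42 to 0.59 with 1 mouse left out, passing an adjusted permutation p of 0.05 without saline-treated mouse 5_3 (r = 0.54, adjusted p = 0.0239) or 7_1 (r = 0.59, adjusted p = 0.0220), and that of Gadd45b with Gadd45g from 0.47 to 0.71, passing without adropin-treated mouse 2_1 (r = 0.68, adjusted p = 0.0467). The cause of these changes was not tested. No paired analysis was possible because the groups share no mouse label, and the label numbers entered only as blocks. Depth limits Gadd45a most.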
